A study of Rattus norvegicus with 12 samples.

Results

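The aquaporins are the membrane channels through which water, and for some of them glycerol, crosses the cell membrane. The array carried 10 of their genes (Aqp1, Aqp2, Aqp3, Aqp4, Aqp5, Aqp6, Aqp7, Aqp8, Aqp9 and Aqp11) among 35608 gene names. They were chosen by name, taking every non-control probe whose gene name in the scanner files is that of an aquaporin, and whether a member counted as present was selected on the scanner software's flag for a spot well above background. Of the 10 members, 6 passed the filter of being well above background on at least 5 of the 12 arrays and entered the fit of 20398 genes. The family was also picked knowing that the study lists Aqp1 for the HFS group and Aqp9 for the DOPA/HFS group on these same arrays, so the levels of Aqp1 in the first comparison and of Aqp9 in the other are given as a description with no test.

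Dorsal striatum was taken from 12 male rats, 1 array per rat, in 4 groups of 3. Strain and age are not given in the sources used here. Every animal carried a lesion of the dopamine neurons made by injecting 9 µg of the toxin 6-OHDA in 4.5 µL into the left substantia nigra, and no intact animal was on the arrays. The 6-OHDA group had the lesion alone. The HFS group also received high frequency stimulation of the subthalamic nucleus for 5 days (130 Hz, pulses of 80 µs, 60 µA) through an electrode on the lesioned side. In the DOPA group, L-DOPA was injected 2 times a day over 19 days at 25 mg/kg, along with benserazide at 12.5 mg/kg. DOPA/HFS animals had L-DOPA on the same schedule and were stimulated during its last 5 days. Among the array groups, the study describes implantation of an electrode only for HFS and DOPA/HFS. Implantation surgery and stimulation thus cannot be told apart here. In each animal the tissue was a pool of punches from thick frozen sections, so the arrays measured all cell types of the punch at once. Of 9 genes of striatal projection neurons, 8 were well above background on all 12 arrays.

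Aquaporins form tetramers in which each subunit has its own pore. Water-selective members, such as Aqp1 and Aqp4, let water follow osmotic gradients, while the aquaglyceroporins Aqp3, Aqp7 and Aqp9 also pass glycerol and other small solutes. In brain, Aqp4 is the main water channel of astrocytes and is concentrated in their end-feet around vessels, where the dystrophin complex anchors it. Aqp1 is the water channel of the choroid plexus epithelium, which secretes cerebrospinal fluid. Aqp9 has been described in some astrocytes and in catecholaminergic neurons.

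A single probe stood for each member. The probes of Aqp1, Aqp2 and Aqp4 were each printed as 10 spots, and those of the other 7 members as 1 spot. In the rat gene table of assembly GRCr8, Aqp2, Aqp5 and Aqp6 are consecutive protein-coding genes on chromosome 7, and Aqp3 and Aqp7 are next to each other on chromosome 5. Each slide held 1 array of every group, always at the same position for a group, so position on the slide and group cannot be told apart. Between 50.5% and 63.2% of the spots of an array were well above background. The array DOPA/HFS replicate 3 stood apart from the others. It had 4175 spots marked as non-uniform or as population outliers, against 2 to 25 on the other 11 arrays. The marked spots were left out.

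Promoter sequence is shown for 2 members, Aqp1 and Aqp5, because all 3 of their HFS arrays lay above all 3 of their 6-OHDA arrays. Arrays of these groups did not overlap, in either direction, for 5.13% of all genes. Aqp5 passed the filter only through the stimulated groups, and the choice is no test. Each line holds the 250 bases before the RefSeq transcription start of rat assembly GRCr8, on the plus strand. Capitals mark matches, on either strand, to the TATA box letters TATAAA, to their variant TATATA and to the GC box letters GGGCGG.
Aqp1 promoter, chr4:85812534-85812783: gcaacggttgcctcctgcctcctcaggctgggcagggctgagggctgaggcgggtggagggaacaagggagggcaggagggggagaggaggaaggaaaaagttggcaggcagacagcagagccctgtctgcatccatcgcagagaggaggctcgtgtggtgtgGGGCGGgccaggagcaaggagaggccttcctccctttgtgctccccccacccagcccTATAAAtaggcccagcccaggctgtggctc
Aqp5 promoter, chr7:132601278-132601527: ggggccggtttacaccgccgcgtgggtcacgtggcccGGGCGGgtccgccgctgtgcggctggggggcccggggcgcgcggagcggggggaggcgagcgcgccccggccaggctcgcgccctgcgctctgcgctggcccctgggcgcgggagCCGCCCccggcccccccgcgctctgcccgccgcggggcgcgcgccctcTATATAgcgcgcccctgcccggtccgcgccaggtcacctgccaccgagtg
TATAAA began 30 bases before the start of Aqp1, and the palindrome TATATA began 50 bases before that of Aqp5. Of 33469 rat promoter windows of the same length, 12.9% held TATAAA on either strand and 5.45% held TATATA. The GC box GGGCGG was found in 30.5% of windows and in both of these promoters. Bases G or C made up 65.2% of the Aqp1 window and 83.2% of the Aqp5 window. The CCAAT box, present in 34.0% of windows on either strand, matched in neither, nor did TAATCC, the letters that Otx2 binds, present in 6.34%. A match is a description of the letters, and no binding was measured.

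Detection divided the family into members seen on every array, members seen on some and members seen on none. Aqp4, Aqp9 and Aqp11 were well above background on all 12 arrays, as were 43.4% of all 41012 probes. Aqp2 was so on the 11 arrays where its spots were in use, Aqp1 on 8, Aqp5 on 5 and Aqp7 on 1. Aqp3, Aqp6 and Aqp8 were not well above background on any array, as were 29.8% of all probes. In the HFS group, 6 members were well above background on all 3 arrays. That number was 4 in the 6-OHDA group, 4 in the DOPA group and 3 in the DOPA/HFS group, where the spots of Aqp2 and of Aqp8 were left out on replicate 3. Over all spots, the share well above background was 60.3% to 63.2% on HFS arrays and 60% to 62.8% on DOPA/HFS arrays. It was 53.8% to 58.9% on 6-OHDA arrays and 50.5% to 58% on DOPA arrays. Whether the counts of members differ beyond this was not tested.

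**Figure D1:**
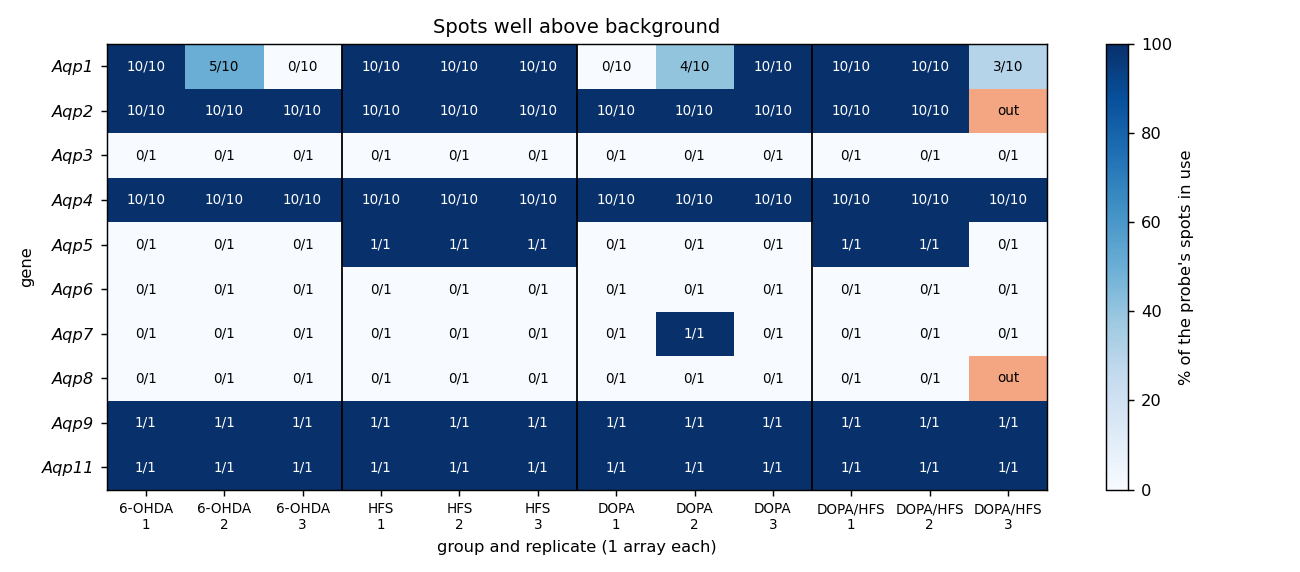
Spots well above background for each of the 10 aquaporin genes (rows) on the 12 arrays (columns, by group and replicate), as the number flagged over the number in use, with the colour giving the percentage. Aqp1 was flagged in all 10 spots on every HFS array and in 0 to 10 spots elsewhere, Aqp5 was flagged on HFS and DOPA/HFS arrays, and the orange cells are probes whose spots were all left out.

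Over all genes, the comparisons with 6-OHDA gave few calls. Calls needed an adjusted p under 0.1 (limma, Benjamini-Hochberg over all genes) together with a fold over 1.2 or under 0.8. In the HFS group 0 of 20398 genes were called (0%), and 477 had an unadjusted p under 0.05 (2.34%). The DOPA group had 1 called gene (0.0049%) and 527 under an unadjusted p of 0.05 (2.58%), and the DOPA/HFS group had 0 called (0%) and 561 (2.75%). The arrays of the 2 groups did not overlap for 5.13% of genes in the HFS comparison, 6.27% in the DOPA comparison and 4.19% in the DOPA/HFS comparison. No aquaporin was called in any of them. Aqp1 in the HFS comparison and Aqp9 in the DOPA/HFS comparison were chosen for their values. Aqp5 passed the filter only through the HFS and DOPA/HFS arrays. No p is therefore read for any of them in those comparisons. No other tested member had an unadjusted p under 0.05 there, and in the DOPA comparison 0 of 6 had.

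Aqp1, the water channel of the choroid plexus, was the member with the widest spread. The HFS arrays read 8.47, 5.99 and 8.07 on the log2 signal scale, and the 6-OHDA arrays 5.42, 5.12 and 5.14. The DOPA arrays read 4.62, 5.00 and 7.19, and the DOPA/HFS arrays 5.05, 5.36 and 4.89. All 3 HFS arrays were above the 6-OHDA and the DOPA/HFS arrays, while DOPA replicate 3 was above HFS replicate 2.

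From low to high, the group means of Aqp1 were 5.10 ± 0.24 (SD, n = 3) in DOPA/HFS, 5.23 ± 0.17 in 6-OHDA, 5.6 ± 1.39 in DOPA and 7.51 ± 1.33 in HFS. Each neighbour in this order overlapped the next. The HFS mean was above the 6-OHDA mean by 2.28 on the log2 scale (SE 0.69), and without HFS replicate 2 by 3.04. The 6-OHDA mean holds 2 arrays on which the probe was well above background and 1 on which it was not, so no fold is given. Slide by slide the difference was 3.05, 0.87 and 2.93. It was 1.24 after a normexp background correction and 1.30 in the log2 table that the authors deposited.

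Where stimulation came on top of L-DOPA, the Aqp1 arrays overlapped those of the 6-OHDA group. In DOPA/HFS the difference from 6-OHDA was -0.13 (SE 0.69, adjusted p = 1 in limma), with a 95% interval of -1.64 to 1.39. The values within slides were -0.37, 0.24 and -0.25, and without DOPA/HFS replicate 3 the difference was -0.02. In the DOPA group it was 0.38 (SE 0.69, adjusted p = 1 in limma, interval -1.14 to 1.89), and -0.42 without DOPA replicate 3. The interaction, the HFS difference under L-DOPA minus that without it, was -2.79 (SE 0.97), a value that rests on the same HFS arrays for which Aqp1 was picked and is given as a description. It was -1.99 without DOPA replicate 3 and -3.55 without HFS replicate 2. Across the 20398 genes the interaction called 0 (0%).

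The 10 spots of Aqp1 gave the precision within an array. Their SD ran from 0.08 to 0.59 on the log2 scale with a median of 0.17, against a pooled SD of 0.97 between arrays of a group. All 10 spots were well above background on the 3 HFS arrays and on DOPA replicate 3. On the 6-OHDA arrays 10, 5 and 0 spots were, on the first 2 DOPA arrays 0 and 4, and on the DOPA/HFS arrays 10, 10 and 3. The levels of Aqp1 outside the HFS group and DOPA replicate 3 thus lay close to the background.

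**Figure D2:**
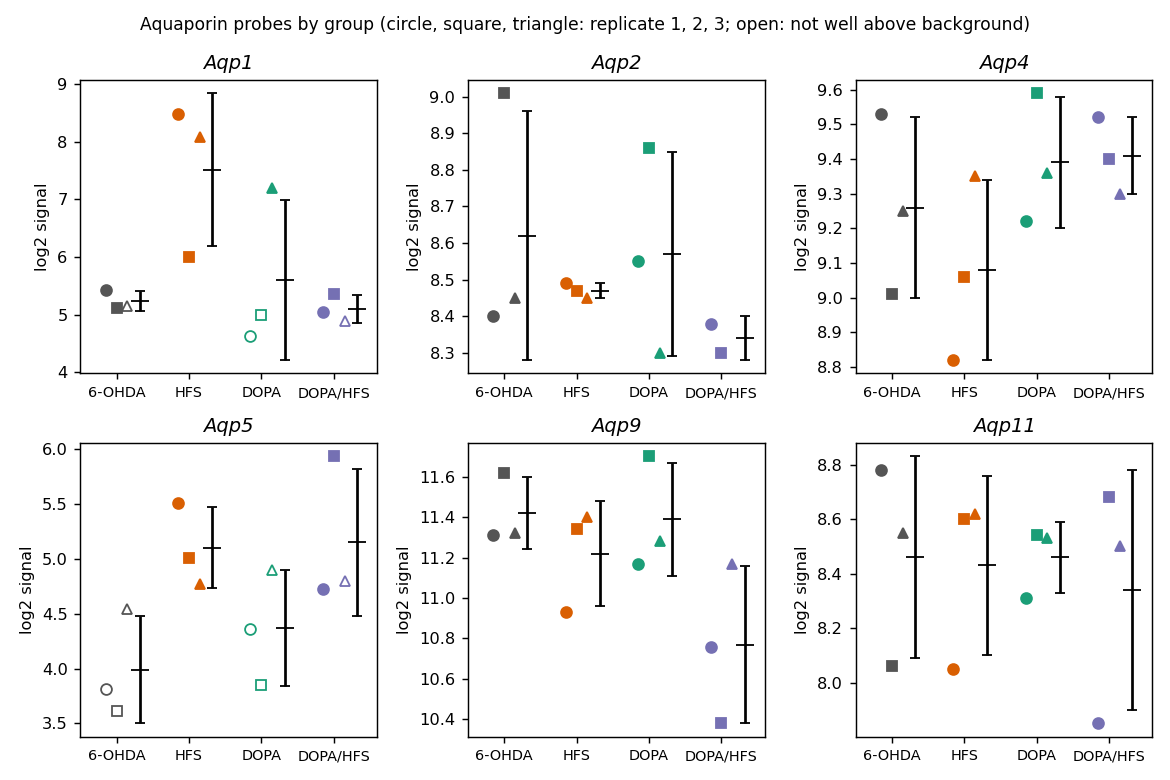
Log2 signal of the 6 aquaporins that passed the filter (panels), by group, with 1 point per array (circle, square and triangle for replicates 1, 2 and 3, open where not well above background) and the group mean ± SD in black (n = 3, and n = 2 for Aqp2 in DOPA/HFS). Each panel has its own axis, which does not start at 0. Aqp1 was highest on HFS replicates 1 and 3 and on DOPA replicate 3, and Aqp9 was lowest on DOPA/HFS replicate 2.

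Some marker genes of the choroid plexus were high on the same arrays as Aqp1. Of 12 listed markers of choroid plexus epithelium, 11 were on the array and 6 passed the filter. Ttr, the carrier of thyroid hormone and retinol that this epithelium secretes, read 16.30, 11.86 and 15.28 on the HFS arrays against 6.23, 6.59 and 5.80 on the 6-OHDA arrays. On the DOPA arrays Ttr read 2.41, 10.29 and 13.81, and on the DOPA/HFS arrays 8.28, 9.25 and 2.79. As for Aqp1, the 3 highest values were those of HFS replicates 1 and 3 and DOPA replicate 3.

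The other defining markers were not all present. Kcnj13, a potassium channel of the apical membrane, was well above background on no 6-OHDA array, on 3 HFS arrays, on 1 DOPA array and on 1 DOPA/HFS array. Kl, which encodes klotho, was well above background on 2 HFS arrays and on no other. Folr1, the folate receptor, and Otx2, a transcription factor of this epithelium, were well above background on all 3 6-OHDA arrays and on all 3 HFS arrays. The summed linear signal of the 9 markers with a value on all 12 arrays ranged from 258 to 391 in the 6-OHDA group and from 4290 to 89200 in the HFS group. It ranged from 244 to 16500 in the DOPA group and from 293 to 926 in the DOPA/HFS group.

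Of the 6 choroid plexus markers in the fit, 4 were well above background on all 3 6-OHDA arrays. Against 6-OHDA, their log2 differences in HFS were 8.27 for Ttr, 5.10 for Sostdc1, 1.78 for Otx2 and 1.77 for Folr1. Each of the 4 had an unadjusted p under 0.05, as did 2.34% of all genes. None was called, and the adjusted p was 0.998 in limma for each. The study reports Ttr and Sostdc1 as its largest HFS increases on these same arrays. By RT-qPCR in other animals, it reports both as raised by HFS too. The list was chosen with earlier results of these data known, so this count is a description and not a test. Kcnj13 and Clic6 were well above background on no 6-OHDA array and passed the filter through 5 arrays each, 3 of them HFS arrays, so they are not counted. In the DOPA comparison and in the DOPA/HFS comparison 0 of the 4 had an unadjusted p under 0.05. In tissue measured in bulk, more cells of a type and more RNA per cell cannot be told apart. The part of choroid plexus in the Aqp1 signal was not tested.

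**Figure D3:**
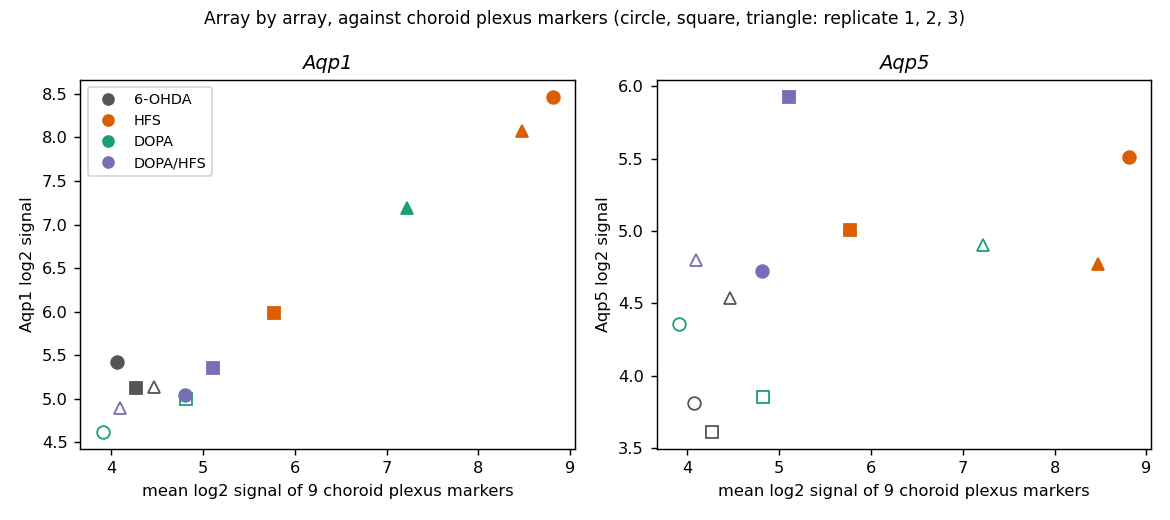
Log2 signal of Aqp1 (left) and Aqp5 (right) on each of the 12 arrays against the mean log2 signal of the 9 choroid plexus markers measured on all arrays (symbols for replicates 1, 2 and 3, open where the aquaporin was not well above background). The 3 arrays with the highest marker means (8.81, 8.47 and 7.22, HFS replicates 1 and 3 and DOPA replicate 3) were also the 3 with the highest Aqp1, while Aqp5 was highest on DOPA/HFS replicate 2, where the marker mean was 5.11.

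The transport proteins that work beside Aqp1 in the secretion of cerebrospinal fluid did not all share its pattern. Of 13 listed, 12 were on the array and 10 passed the filter. Kcnj13 and Clic6, which are also in the marker list, were 2 of these and are not counted, because no 6-OHDA array had them well above background. The median HFS difference of the other 8, which were so on all 3 6-OHDA arrays, was 0.06 beside 0.01 over all genes. Of these 8, 1 had an unadjusted p under 0.05 in the HFS comparison, beside 2.34% of all genes. That gene was the anion exchanger gene Slc4a2, which the study also lists for HFS on these arrays. Its difference was 0.75 (SE 0.22, adjusted p = 0.998 in limma). Car2, a carbonic anhydrase, differed by 0.05 and Slc12a2, a sodium, potassium and chloride cotransporter, by 0.08, and neither was called. Both are also used by other cell types of the brain.

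The 5 genes whose log2 signal was most like that of Aqp1 over the 12 arrays were Sostdc1 (Pearson r = 0.98), Kcnj13 (r = 0.96), LOC683753 (r = 0.95), Scgb1c1 (r = 0.95) and AW142560 (r = 0.91). Their Spearman correlations were lower, from 0.62 to 0.74. Without HFS replicates 1 and 3, the 2 arrays farthest from the median of Aqp1, Pearson r was between 0.71 and 0.94. Sostdc1 and Kcnj13 stood on the list of choroid plexus markers. None of the 5 was among the 5 nearest by Spearman correlation.

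Aqp4, the water channel of astrocytes, lay within a narrow range on all 12 arrays. The 6-OHDA arrays read 9.53, 9.01 and 9.25, the HFS arrays 8.82, 9.06 and 9.35, the DOPA arrays 9.22, 9.59 and 9.36, and the DOPA/HFS arrays 9.52, 9.40 and 9.30. In order, the means were 9.08 ± 0.26 (SD, n = 3) in HFS, 9.26 ± 0.26 in 6-OHDA, 9.39 ± 0.19 in DOPA and 9.41 ± 0.11 in DOPA/HFS. Every group overlapped its neighbour.

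Against 6-OHDA, Aqp4 differed by -0.18 in HFS (SE 0.18, adjusted p = 0.998 in limma), by 0.13 in DOPA (SE 0.18, adjusted p = 1) and by 0.14 in DOPA/HFS (SE 0.18, adjusted p = 1). The 95% intervals ran from -0.59 to 0.22, from -0.28 to 0.53 and from -0.26 to 0.55, so folds from 0.664 to 1.46 are within them. Within slides the HFS differences were -0.71, 0.06 and 0.10. Spots of Aqp4 on an array had a median SD of 0.07, and arrays of a group a pooled SD of 0.22. The sign of the DOPA/HFS difference turned, to -0.04 in the deposited log2 table and to -0.03 with the marked spots kept.

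The complex that holds Aqp4 at the astrocyte end-foot was measured with 8 of 14 listed genes. None was called or had an unadjusted p under 0.05 in any comparison. Their median difference from the lesion-only arrays was 0.10 under HFS, 0.05 under DOPA and 0.08 under DOPA/HFS. Dag1, which encodes dystroglycan, differed by -0.12, 0.00 and -0.14 in these groups. Kcnj10, the potassium channel of the same membrane, was well above background on 4 of 12 arrays and was not tested.

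Markers of astrocytes were described in the same way. Of 11 listed genes, 10 were tested, and their median difference was 0.14 for HFS, 0.05 for DOPA and 0.11 for DOPA/HFS. In the DOPA comparison 1 of the 10 had an unadjusted p under 0.05 and was lower, and the other comparisons had 0. Gfap differed from 6-OHDA by 0.14, 0.13 and 0.31.

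The genes most like Aqp4 over the 12 arrays were LOC500522 (r = 0.91), TC523517 (r = 0.91), H33079 (r = 0.90), Xpo7 (r = 0.87) and Sema5a (r = 0.86). None was in the lists of astrocyte markers or Aqp4 partners. Without HFS replicate 1 and 6-OHDA replicate 2 their r lay between 0.63 and 0.84.

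Aqp5, the water channel of salivary and lacrimal glands and of lung, gave a dim probe of 1 spot. The HFS arrays read 5.51, 5.01 and 4.77, and all 3 were well above background. The DOPA/HFS arrays read 4.72, 5.93 and 4.80, of which the first 2 were. The 6-OHDA arrays read 3.81, 3.61 and 4.54 and the DOPA arrays 4.36, 3.85 and 4.90, and none of these 6 was. The signal needed for the flag differed between arrays: DOPA replicate 3 at 4.90 was not flagged, while DOPA/HFS replicate 1 at 4.72 was.

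The HFS and DOPA/HFS arrays of Aqp5 lay above all 6-OHDA arrays, and DOPA replicate 3 lay among them. Group means were 3.99 ± 0.49 (SD, n = 3) in 6-OHDA, 4.37 ± 0.53 in DOPA, 5.10 ± 0.37 in HFS and 5.15 ± 0.67 in DOPA/HFS. The gene passed the filter only through the 2 stimulated groups, so no test is given. A fold can be given only as a bound, of the mean of the bright group over the lowest signal that counted as well above background on the 6-OHDA arrays. For HFS this bound was 1.06-fold, from a mean of 5.10 over a level of 5.01. HFS replicate 3, at 4.77, lay below that level. The bound rests on arrays through which Aqp5 passed the filter, and is no test. In 2 of 10 recomputations this bound fell below 1 and no fold could be given, without 6-OHDA replicate 1 and without HFS replicate 1. No bound is given for DOPA/HFS, where 1 of the 3 readings was itself not well above background.

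Aqp5 was highest on another array than the mean of the choroid plexus markers. On DOPA/HFS replicate 2 it read its highest value, 5.93, where Ttr read 9.25. On HFS replicate 1, where the marker mean was highest at 8.81, Aqp5 read 5.51. Whether Aqp5 followed the markers was not tested. Over the 12 arrays Aqp5 and Aqp1 had a Pearson r of 0.44. Hars2 (r = 0.87) and Kars1 (r = 0.81), which encode aminoacyl-tRNA synthetases, the respiratory chain gene Ndufb7 (r = 0.84), XM_218225 (r = 0.84) and LOC689025 (r = 0.83) were most like Aqp5, and 7 of the 12 arrays gave only a background level for it.

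Aqp2, the vasopressin-regulated water channel of the renal collecting duct, gave a signal on the striatal arrays. The 6-OHDA arrays read 8.40, 9.01 and 8.45, the HFS arrays 8.49, 8.47 and 8.45, and the DOPA arrays 8.55, 8.86 and 8.30. The first 2 DOPA/HFS arrays read 8.38 and 8.30. All 10 spots were well above background on each of these 11 arrays. On DOPA/HFS replicate 3 all 10 were marked as non-uniform and left out, so the fit used 2 arrays for that group.

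No difference of Aqp2 from 6-OHDA passed the test. The means were 8.34 ± 0.06 (SD, n = 2) in DOPA/HFS, 8.47 ± 0.02 (n = 3) in HFS, 8.57 ± 0.28 in DOPA and 8.62 ± 0.34 in 6-OHDA. The 2 DOPA/HFS arrays lay just below the 3 HFS arrays, while the other neighbours overlapped. The differences from 6-OHDA were -0.15 in HFS (SE 0.20, adjusted p = 0.998 in limma), -0.05 in DOPA (SE 0.20, adjusted p = 1) and -0.28 in DOPA/HFS (SE 0.22, adjusted p = 1). Their 95% intervals were -0.59 to 0.29, -0.49 to 0.39 and -0.77 to 0.21. The DOPA value turned to 0.15 and the HFS value to 0.05 without 6-OHDA replicate 2, the highest array.

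**Figure D4:**
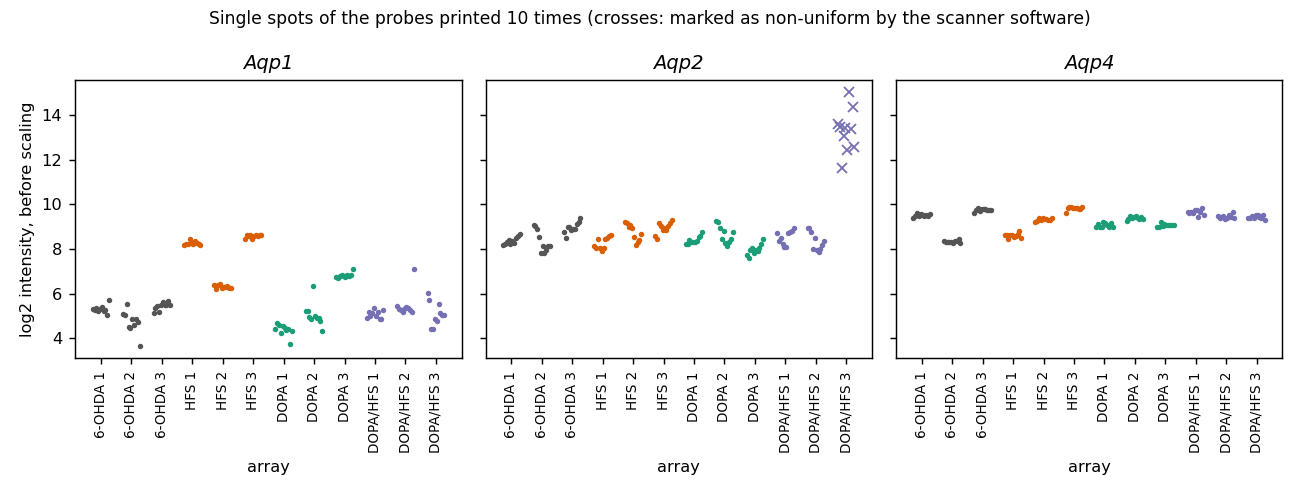
Log2 intensity before scaling of each of the 10 spots of Aqp1, Aqp2 and Aqp4 (panels) on the 12 arrays, with crosses for spots marked as non-uniform by the scanner software. The 10 crosses of Aqp2 on DOPA/HFS replicate 3 lie between 11.66 and 15.02, above every spot of Aqp2 on the other arrays, while the spots of Aqp1 and Aqp4 on that array were not marked.

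The spots of Aqp2 that were left out were much brighter than the rest. Their mean log2 intensity on DOPA/HFS replicate 3 was 13.30, against array means of 7.97 to 8.95 on the other 11 arrays. With them kept, the DOPA/HFS difference from 6-OHDA turned from -0.28 to 1.2 (adjusted p = 0.847 in limma). The log2 table that the authors deposited holds these spots at a mean of 12.93, against 8.75 to 9.33 on the other arrays. Of the 263 probes printed 10 times, 168 had no marked spot on that array, 90 had some and 5 had all 10 marked. The marked spots of the array were brighter than the median of the other arrays in 99.5% of cases, by a median of 4.10 on the log2 scale.

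Slc37a4 (r = 0.96), which encodes a glucose 6-phosphate transporter, and Kcnk9 (r = 0.96), a potassium channel, were nearest to Aqp2 over its 11 arrays. ENSRNOT00000049443 (r = 0.95), BI289548 (r = 0.95) and BI277607 (r = 0.94) followed. Without 6-OHDA replicate 2 and DOPA replicate 2 the 5 values lay between 0.52 and 0.75.

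Among the glycerol channels, Aqp9 was well above background on every array. The 6-OHDA arrays read 11.31, 11.62 and 11.32, the HFS arrays 10.93, 11.34 and 11.40, and the DOPA arrays 11.17, 11.70 and 11.28. The DOPA/HFS arrays read 10.76, 10.38 and 11.17. All 3 DOPA/HFS arrays were below the 6-OHDA arrays, and DOPA/HFS replicate 3 was level with the lowest DOPA array.

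The means of Aqp9 were, in order, 10.77 ± 0.39 (SD, n = 3) in DOPA/HFS, 11.22 ± 0.26 in HFS, 11.39 ± 0.28 in DOPA and 11.42 ± 0.18 in 6-OHDA. Each neighbour in this order overlapped the next. In DOPA/HFS the level was below 6-OHDA by a log2 difference of -0.65 (SE 0.23), a fold of 0.638. Within slides the differences were -0.56, -1.24 and -0.15. They were uneven between replicates, and without DOPA/HFS replicate 2 the difference was -0.46, while without replicate 3, the array that stood apart, it was -0.85.

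With either treatment alone, no difference of Aqp9 from 6-OHDA passed the test. The HFS difference was -0.20 (SE 0.23, adjusted p = 0.998 in limma, 95% interval -0.70 to 0.30), and slide by slide it was -0.38, -0.28 and 0.08. The DOPA difference was -0.03 (SE 0.23, adjusted p = 1 in limma, 95% interval -0.53 to 0.47), and its sign turned in 5 of 21 other settings. Its interaction was -0.42 (SE 0.32), given without a test because it uses the DOPA/HFS arrays.

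The enzymes that make and use glycerol were measured beside Aqp9. Of 12 listed genes, 11 were tested. None was called or had an unadjusted p under 0.05 in any comparison. The median of their differences was 0.07 for HFS, -0.05 for DOPA and 0.00 for DOPA/HFS. Glycerol kinase (Gk), which phosphorylates glycerol on entry, differed by -0.11, 0.22 and -0.02. Mgll, which releases glycerol from monoacylglycerols, differed by 0.41, 0.11 and 0.31 with adjusted p-values of 0.998, 1 and 1 in limma.

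Fgfr1op2 (r = 0.93), Xpr1 (r = 0.89), a phosphate exporter gene, AI764502 (r = 0.85), Ube2s (r = 0.84) and XM_235328 (r = 0.83) were most like Aqp9 over the 12 arrays. Without DOPA/HFS replicates 1 and 2 these values lay between 0.65 and 0.86. Among the members themselves, Aqp9 and Aqp5 had a Pearson r of -0.79 over 12 arrays, the value farthest from 0 of the 15 pairs of tested members. Aqp5 was well above background on only 5 of these arrays. DOPA/HFS replicate 2 held both the highest Aqp5 (5.93) and the lowest Aqp9 (10.38), so this value is a description.

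The other glycerol channels were at or near the background. Aqp3, the glycerol channel of skin and kidney, ranged only from 2.42 to 2.49 on the log2 signal scale. On 10 of the 12 arrays its intensity was a surrogate that the scanner software puts in place of a very low signal. Aqp7, through which fat cells release glycerol, was well above background on DOPA replicate 2 alone, where it read 5.48. It read 2.80 to 4.23 on the other 11 arrays. No fold is given for either.

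Aqp11, an aquaporin of internal membranes, was well above background on every array. The 6-OHDA arrays read 8.78, 8.06 and 8.55, the HFS arrays 8.05, 8.60 and 8.62, the DOPA arrays 8.31, 8.54 and 8.53, and the DOPA/HFS arrays 7.85, 8.68 and 8.5. Group means ran from 8.34 ± 0.44 (SD, n = 3) in DOPA/HFS through 8.43 ± 0.33 in HFS to 8.46 ± 0.37 in 6-OHDA and 8.46 ± 0.13 in DOPA, all overlapping. Differences from 6-OHDA came to -0.04 for HFS, 0.00 for DOPA and -0.12 for DOPA/HFS (SE 0.26 for each, adjusted p = 0.998, 1 and 1 in limma). Their 95% intervals were -0.60 to 0.53, -0.57 to 0.56 and -0.69 to 0.45. The sign in HFS turned to 0.15 without HFS replicate 1, and that in DOPA/HFS to 0.13 without DOPA/HFS replicate 1.

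Scg5, a secretory granule gene, was among the genes most like Aqp11 (r = 0.86), with XM_575696 (r = 0.89), Iqcm (r = 0.83), RGD1562079 (r = 0.81) and RGD1309450 (r = 0.79). Without DOPA/HFS replicate 1 and HFS replicate 1 their r was between 0.72 and 0.82.

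Aqp6, an anion-permeable member of intracellular vesicles in kidney, read 2.49 to 3.19, and its intensity was a surrogate on 11 of the 12 arrays. Aqp8, which passes water, ammonia and hydrogen peroxide, read 2.68 to 2.94 on the 11 arrays where its spot was in use, all of them surrogates. On DOPA/HFS replicate 3 its spot was marked and left out.

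**Figure D5:**
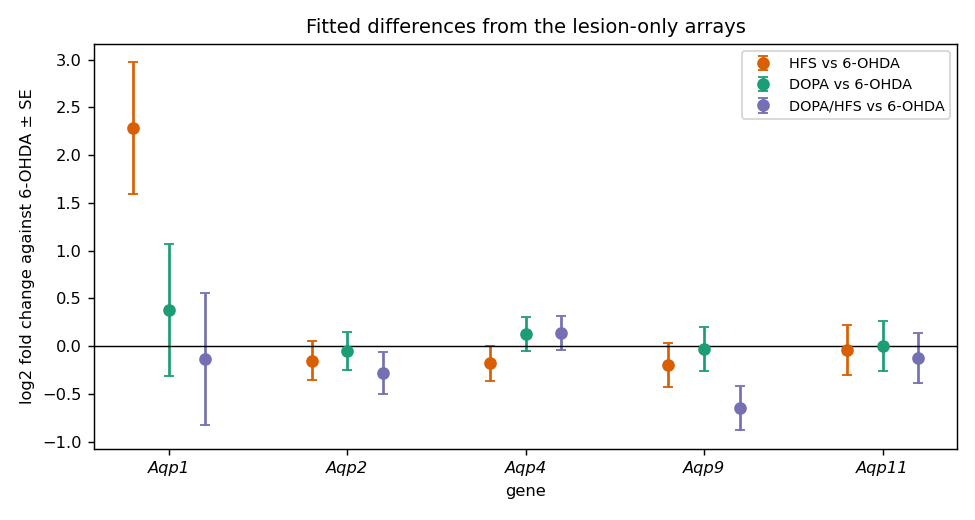
Fitted log2 fold change ± SE against the 6-OHDA group for the tested aquaporins, coloured by comparison (limma over 12 arrays, 3 per group, 2 for Aqp2 in DOPA/HFS), without Aqp5, whose 6-OHDA level is a background level. Aqp1 in HFS (2.28) and Aqp9 in DOPA/HFS (-0.65) lie farthest from 0 in their comparisons, and both were picked for these values. Aqp1 was well above background on 2 of 3 6-OHDA arrays and on 1 of 3 DOPA arrays, so no fold is read from its points.

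Markers of 9 other cell types that a striatal punch can hold, astrocytes among them, were counted as well. In all 59 listed genes were tested, and none was called. In the HFS comparison 2 of the 59 had an unadjusted p under 0.05 and were higher, in the DOPA comparison 1 was higher and 1 lower, and in the DOPA/HFS comparison 2 were higher. That is 3.39% of the 59 in each comparison, near the 2.34%, 2.58% and 2.75% of all genes.

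The median differences farthest from 0 in the HFS and DOPA comparisons were those of ependyma, the ciliated lining of the ventricles. They were 0.67 for HFS, -0.49 for DOPA and 0.18 for DOPA/HFS over 6 tested genes. The summed signal of the ependymal genes ran from 2690 to 12400 in the 6-OHDA group and from 6830 to 11600 in the HFS group, and the groups overlapped. Fibroblasts of the leptomeninges had a median of 0.23 for HFS, -0.02 for DOPA and 0.04 for DOPA/HFS. In endothelium the medians were -0.03, 0.22 and 0.03, and in microglia -0.01, 0.05 and 0.11.
In the same order, the medians were 0.00, -0.23 and 0.15 for erythrocytes, 0.31, 0.17 and 0.47 for neutrophils and monocytes, 0.14, 0.02 and 0.02 for oligodendrocytes, and -0.05, 0.08 and 0.02 for striatal projection neurons. The median over all genes was between -0.01 and 0.01 in each comparison.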

How the data were processed

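Total RNA of the dorsal striatum of 12 rats was hybridised by the authors to 12 single-colour Agilent arrays, 4 groups of 3. The members and lists were chosen with earlier results of these data known. The deposited intensity values are the scanner software's (Agilent Feature Extraction 9.1, as named in the submitters' processing notes), background-subtracted on a linear scale and not normalized between arrays. The authors also deposited log2 values, quantile normalized between arrays as their methods state. No array column was left unused.

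Of 45018 spots, 1639 controls and the spots marked as outliers were not used. Log2 intensities were quantile normalized, and the spots of each of 41012 probes were averaged. On an array, a probe was well above background where a share of at least 0.5 of its spots in use was flagged so. Probes flagged so on a share of 0.4 or more of the arrays were kept, and the brightest stood for its gene (20398 genes). Of the probes, 10735 were named through RefSeq accessions (GRCr8), and the others kept the names in the files. Promoters come from RefSeq, which had 9 of the 10 members.

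All arrays were fitted with limma 3.58.1 (lmFit and eBayes, run in R 4.3.3). Each treatment was compared with 6-OHDA. Calls required a p under 0.1 after Benjamini-Hochberg adjustment, and a fold either over 1.2 or under 0.8. The fit was tested on simulated data. With 3 arrays against 3, an exact permutation test of a single gene cannot give a p below 0.1, and none was run. The labels do not describe how rats were allocated, and precision is limited by there being 3 arrays a group. The named genes were all members, the defining markers and at most 4 genes of each of 13 lists, and for each tested member the 5 genes with the highest Pearson correlation. The values of 2 listed genes are not reported here. The alternatives were scaling to the 75th percentile, normexp (offset 50), the log2 values of the deposited table, testing every gene, requiring detection on each array of some group, averaging a gene's probes, only the 6 arrays compared, the replicate number as a block, an adjusted p under 0.05, no fold limit, outlier spots kept, each array left out in turn, detection by a positive and significant signal or by any probe of the gene, and for likeness the Spearman correlation and the Pearson correlation without group means.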

Additional observations from a re-analysis of the deposited data

Results flagged for a closer look

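The bright spots of Aqp2 on DOPA/HFS replicate 3 stand outside every comparison because the scanner software marked all 10 of them as non-uniform. Their mean log2 intensity before scaling was 13.30, above all arrays of the 6-OHDA group. The single spot of Aqp8 on the same array was marked too and read 10.35, where the other 11 arrays read 2.23 to 3.79. The SD of the 10 Aqp2 spots there was 0.96 on the log2 scale, against at most 0.50 on any other array (after scaling). Whether these readings come from the RNA or from the array was not tested.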

How the results depend on the processing

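No aquaporin was called under any of the 23 alternatives tried for each comparison. The genes called in the HFS comparison were 0, and 3 with no filter, 1 with the filter on all 3 arrays of a group and 0 to 2 when each array was left out in turn. In the DOPA comparison 1 gene was called, 0 with no filter, 0 with the replicate number as a block, 0 at an adjusted p under 0.05, 2 in the fit of only the 6 arrays compared, and 0 to 13 with each array left out. In DOPA/HFS they were 0, and 0 to 3 with each array left out, and the interaction gave 0, and 1 with the filter on all 3 arrays of a group.
Of 335 fitted differences of single members under other settings, 17 changed sign. With marked spots kept, Aqp2 in DOPA/HFS went to 1.2 and Aqp4 to -0.03, and in the deposited log2 table Aqp4 in DOPA/HFS went to -0.04 and Aqp9 in DOPA to 0.01, as it did with normexp. The median of all genes in DOPA/HFS was -0.14 with marked spots kept, and -0.12 in the deposited table, where other processing steps differ as well. With each array left out in turn, Aqp1 in DOPA ranged from -0.42 to 0.87, Aqp2 from -0.26 to 0.05 in HFS and from -0.19 to 0.15 in DOPA, Aqp9 in DOPA from -0.19 to 0.07, and Aqp11 from -0.24 to 0.15 in HFS and from -0.32 to 0.13 in DOPA/HFS. The cause was not tested.
Same-numbered arrays shared a slide. Their deviations from the group means correlated by -0.14 to 0.48 between 6-OHDA and a treated group, 0.12 to 0.37 between HFS and DOPA, -0.29 to 0.07 between HFS and DOPA/HFS and -0.02 to 0.28 between DOPA and DOPA/HFS. Not every pair was above 0.1, so the numbers were not taken to pair rats, and the replicate block is a block on the slide. With it Aqp1 in HFS stayed at 2.28 and Aqp9 in DOPA/HFS at -0.65. By a positive and significant signal, Aqp1 and Aqp5 were detected on 12 arrays each, Aqp3 and Aqp7 on 2 and Aqp6 on 1. For members near the background, signal limits what can be seen.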
